A study of Drosophila melanogaster with 9 samples.

Results

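The genes described here are Drosophila melanogaster genes that the deposited tables list by a CG number, the placeholder that the fly genome annotation gives to a gene without a name, and that were higher in late than in mid-oogenesis follicles without a large reduction in an ecdysone receptor mutant. A gene was chosen when its mean in wild-type stage 10 follicles was at least 5 FPKM (fragments scaled by transcript length and library size), when that mean was at least 2 times the mean in wild-type stage 8 follicles, and when its mean in mutant stage 10 follicles was above 0.6 times the wild-type stage 10 mean. The rule returned 126 of the 7708 CG-numbered genes among 15602 listed genes. The genes were chosen by their FPKM in all 3 groups, so the differences between groups given below describe how the genes were selected and carry no test. The same rule on values after median-of-ratios scaling returned 76 genes, 63 of them among the 126. The same stage criteria gave 239 CG-numbered genes, and the other 113 of them, at or below 0.6 in the mutant, serve below as a comparison set.

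RNA was sequenced from whole ovarian follicles of adult females, in 9 libraries of 100 dissected follicles each. The 3 EcRts stage 10 libraries came from females with a temperature-sensitive mutation of the ecdysone receptor gene EcR, and 2 days after eclosion these flies were moved to a restrictive temperature. The 3 wild-type stage 10 and the 3 wild-type stage 8 libraries came from females for which no temperature shift is stated, and the growth protocol gives 25 °C. Strain Oregon R is written for every sample, the mutant included, and neither the EcR alleles nor the restrictive temperature is stated, so the mutation, its genetic background and the temperature shift cannot be told apart. The labels give an age of 6 to 14 days for all samples, whereas the growth protocol starts at 4 days. Nothing states that replicates were collected from different flies or on different days, so the spread between them may be technical. Because whole follicles were sequenced, fewer cells of a type and less RNA per cell cannot be told apart in any value below.

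A Drosophila follicle is an oocyte joined to its sister nurse cells and wrapped in a layer of somatic follicle cells. Between stage 8 and stage 10 the oocyte takes up yolk, the nurse cells make RNA and protein for the future embryo, and the follicle cells secrete the first layers of the eggshell. Ecdysone, the fly steroid hormone, acts through a receptor made of EcR and Usp, and EcR function is needed for follicles to progress through the middle of oogenesis.

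The labelled tissue was checked against marker genes. Summed FPKM of 12 follicle cell genes was 28500 to 32600 in EcRts libraries, 32300 to 38500 in wild-type stage 10 and 13400 to 20700 in wild-type stage 8. Summed FPKM of 9 germline genes was 1640 to 1730, 1680 to 1800 and 1890 to 2050 in the same order of groups. The highest of these was osk, with means of 634, 590 and 963 FPKM. By limma 5 of the 9 rose and 4 fell by stage, where 49.2% and 18.9% of all tested genes did. Of the follicle cell genes 10 rose and 1 fell. In EcRts against wild-type stage 10, 2 follicle cell genes rose and 6 fell, and 1 germline gene rose and 2 fell. Of all tested genes 9.93% rose and 33.9% fell. After rescaling 4 or 5 germline genes rose and 0 fell. EcR itself was at 20.6 ± 0.67 FPKM in EcRts and 21.0 ± 1.36 FPKM in wild-type stage 10 (mean ± SD, n = 3 each; limma adjusted p = 0.731), and the RNA level of a temperature-sensitive allele says nothing of the receptor's activity. The depth implied by the deposited confidence limits was 27.2 to 33.3 M fragments in EcRts, 17.5 to 21.3 M in wild-type stage 10 and 18.6 to 21.7 M in wild-type stage 8. A further share was that of genes outside the main chromosome arms and the mitochondrial genome that are not currently annotated as protein-coding. Genes without a current model are included. They took 28.0% to 31.5% of the summed FPKM in EcRts, 9.61% to 11.3% in wild-type stage 10 and 17.7% to 21.9% in wild-type stage 8. FPKM is relative to the total, so ratios are also given after a median-of-ratios scaling that brings the median gene of each library to the same level. The factors of that scaling averaged 0.996 in EcRts, 1.087 in wild-type stage 10 and 0.936 in wild-type stage 8. Their order is not that of the share, and the part of the share in the scale was not tested. Marker lists of other cell types also moved with the groups. Muscle was at 17.5 to 23.3 summed FPKM in EcRts, up to 14.0 in wild-type stage 10 and up to 11.2 in wild-type stage 8. Of its 5 tested genes 3 were called higher in EcRts against wild-type stage 10 by limma, where 9.93% of all tested genes were. After rescaling 4 or 5 were. Hemocyte genes summed to 65.0 to 71.5 FPKM in EcRts, 93.1 to 94.2 in wild-type stage 10 and 50.1 to 56.2 in wild-type stage 8, with He at 0 in every library. Neuron genes summed to 13.1 to 14.6 FPKM in EcRts, 17.1 to 18.1 in wild-type stage 10 and 14.9 to 17.2 in wild-type stage 8, and germarium genes to 12.9 to 17.5, 14.5 to 17.0 and 5.83 to 6.37 FPKM in the same order of groups. In each of these 3 lists 1 gene passed the filter on low values, crq, Syx1A and bam in that order, and the other genes averaged under 1 FPKM in every group. By limma crq and Syx1A fell in EcRts against wild-type stage 10, the call of Syx1A being lost under both other scalings, and crq and bam rose by stage. Late eggshell genes summed to 1950 to 2630 FPKM in EcRts, 5070 to 6870 in wild-type stage 10 and 478 to 1330 in wild-type stage 8. By limma 3 of these 7 genes fell in EcRts against wild-type stage 10, and 2 did after scaling to protein-coding genes.  Of all tested genes 33.9% fell in the deposited values. All 13 genes of a heat shock list fell in EcRts against wild-type stage 10 by limma, where 33.9% of all tested genes did. After scaling to protein-coding genes 12 fell. The median log2(FPKM + 1) difference of the list was -5.61, and -5.14 against wild-type stage 8. In the latter comparison 10 of the 13 were called lower, where 21.5% of all tested genes were. No share of all tested genes called by limma is given after rescaling. The part of RNA from these cell types, of follicle age within a stage and of the temperature shift in the results was not tested.

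The 126 genes were of moderate abundance. Their mean in EcRts follicles ran from 3.48 to 250.2 FPKM with a median of 16.25 FPKM, against a median of 20.09 FPKM in wild-type stage 10 and 8.169 FPKM in wild-type stage 8. In wild-type stage 10, 8 genes reached 100 FPKM, 21 reached 50 FPKM and 63 reached 20 FPKM, while 23 stayed under 10 FPKM. Together they made up 0.346% ± 0.00691 of the summed FPKM in EcRts, 0.509% ± 0.024 in wild-type stage 10 and 0.183% ± 0.00807 in wild-type stage 8 (SD, n = 3 each). The 10 most abundant genes held 38.1% of the summed wild-type stage 10 level of the set.

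Most of the genes sat close to the stage threshold. The ratio of the wild-type stage 10 mean to the wild-type stage 8 mean had a median of 2.327 and quartiles of 2.111 and 2.673. A ratio of 2.5 or more was reached by 41 genes, of 3 or more by 22, of 4 or more by 13 and of 10 or more by 5. In 125 of the 126 genes all 3 wild-type stage 10 libraries lay above all 3 wild-type stage 8 libraries, a separation that 51.4% of the 8340 genes tested showed in that direction. The exception was CG14245, with 2.93, 12.8 and 12.5 FPKM in wild-type stage 10 and 6.26, 2.77 and 1.04 FPKM in wild-type stage 8 libraries. By limma (a linear model across all 8340 genes, Benjamini-Hochberg adjusted p under 0.05) 125 members were called higher, again all but CG14245, where 49.2% of all tested genes were. The libraries of 125 members were also separate after median-of-ratios scaling, against 35.3% of all tested genes.

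The genes kept most, but usually not all, of their stage 10 level in the mutant. As a percentage of the wild-type stage 10 mean, the EcRts mean had a median of 76.4% and ran from 60.1% to 244%. Of the 126 genes, 29 lay between 60% and 70%, 50 between 70% and 80%, 32 between 80% and 90%, 7 between 90% and 100%, and 8 above 100%. The median over all tested genes was 91.6%. After median-of-ratios scaling the medians were 83.3% for the 126 genes and 99.9% for all tested genes, and the lowest member stood at 65.5%.

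**Figure D1:**
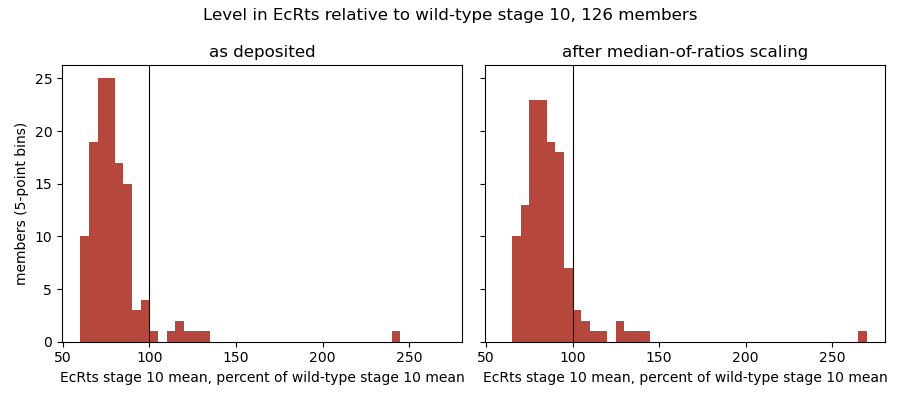
Histograms of the EcRts stage 10 mean as a percentage of the wild-type stage 10 mean for the 126 genes, in bins of 5 percentage points, with a line at 100%. Left, FPKM as deposited, with a median of 76.4%; right, after median-of-ratios scaling, with a median of 83.3%, where 13 genes in place of 8 lie above 100%; CG8097 stands alone at the right of both.

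In 93 of the 126 genes all EcRts libraries lay below all wild-type stage 10 libraries, against 43.2% of all tested genes. In 3 genes, CG8097, Sec20 (CG2023) and Agpat1 (CG3812), they lay wholly above, against 14.1% of all tested genes, and in 30 genes the 2 groups overlapped. Limma called 79 members lower in EcRts, where 33.9% of all tested genes were, and the same 3 members higher, where 9.93% were. The members called lower numbered 44 after median-of-ratios scaling and 31 after scaling to protein-coding genes. The share of all tested genes called by limma under these scalings is not given, and the 33.9% does not apply to them. CG8097 was the 1 member still called higher when EcRts replicate 1 or wild-type stage 10 replicate 3 was left out. After median-of-ratios scaling 62 members lay wholly below, against 27% of all tested genes, and 5 wholly above, against 27.4%, namely the same 3 with nenya (CG31053) and CG4424. Because the rule used this contrast and its wild-type stage 10 mean also enters the stage ratio, nothing is read from these shares.

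The EcRts libraries were also compared with those of wild-type stage 8. The series holds no EcRts stage 8 library, so a stage difference within the mutant was not tested. The comparison mixes stage with the mutation and the temperature shift. EcRts levels exceeded wild-type stage 8 levels by a median of 1.85-fold, with the lowest ratio at 1.213. In 122 genes all EcRts libraries lay above all wild-type stage 8 libraries, where 43.6% of all tested genes did. The 4 that overlapped were CG12716, CG6503, CG14245 and ssp7 (CG32667). Limma called 122 members higher in EcRts than in wild-type stage 8, where 39.8% of all tested genes were, and the 4 left out were CG12716, CG14245, CG1572 and ssp7. After median-of-ratios scaling 120 members lay wholly above, against 35.7% of all tested genes. The rule bounds this ratio from below at the product of its other thresholds, so the separation is a description too.

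The most abundant gene was CG43965, a 38-residue predicted protein at chr3L:8718620-8718874 (all positions are on build dm3). It had 214, 366 and 171 FPKM in EcRts libraries, against 311, 421 and 352 FPKM in wild-type stage 10 and 97.6, 86.6 and 70.9 FPKM in wild-type stage 8 libraries. The second EcRts library lay above the first and the third wild-type stage 10 libraries, so the groups overlapped, and the EcRts mean was 69.2% of wild-type stage 10. Without that EcRts library CG43965 no longer met the rule. CG14464, of 116 residues at chr2R:716725-717440, had 156, 181 and 207 FPKM in EcRts libraries, against 250.1, 254 and 319 FPKM in wild-type stage 10 and 105, 124 and 130.0 FPKM in wild-type stage 8 libraries. CG10237, of 324 residues at chr2L:19435844-19442358, had 180.4, 171 and 179.7 FPKM in EcRts libraries, against 222, 222 and 218 FPKM in wild-type stage 10 and 75.4, 63.4 and 63.6 FPKM in wild-type stage 8 libraries. CG10237 was the steadiest of these, with group means of 177 ± 5.21, 221 ± 2.35 and 67.5 ± 6.85 FPKM (SD, n = 3 each) and no overlap between groups.

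The next genes in order of wild-type stage 10 level behaved alike. CG18190, at chr2R:14739390-14740494, had 141, 137 and 136 FPKM in EcRts libraries, against 188, 192 and 201 FPKM in wild-type stage 10 and 92.3, 88.6 and 82.6 FPKM in wild-type stage 8 libraries. CG9135, at chr2L:6050829-6053498, had 84.7, 78.6 and 86.7 FPKM in EcRts libraries, against 119, 126 and 123 FPKM in wild-type stage 10 and 51.8, 47.2 and 49.04 FPKM in wild-type stage 8 libraries. CG10527, at chr2R:16957873-16960290, had 88.98, 97.8 and 94.6 FPKM in EcRts libraries, against 126, 115 and 113 FPKM in wild-type stage 10 and 63.4, 49.5 and 55.7 FPKM in wild-type stage 8 libraries. In each of these 3 genes the groups fell into 3 levels without overlap, EcRts between the stage 8 and the stage 10 wild type, with 71.2%, 67.97% and 79.5% of the wild-type stage 10 mean in EcRts for CG18190, CG9135 and CG10527 in that order.

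The lower end of the 10 most abundant genes was made up of conu, CG12567, CG33169 and CG5708. conu (CG17082), a protein that binds Moesin at the cell cortex, had 88.4, 93.5 and 93.2 FPKM in EcRts libraries, against 108, 114 and 125 FPKM in wild-type stage 10 and 53.7, 59.8 and 57.7 FPKM in wild-type stage 8 libraries. CG12567, on the heterochromatic sequence 2LHet, had 64.02, 67.4 and 73.9 FPKM in EcRts libraries, against 99.6, 104 and 111 FPKM in wild-type stage 10 and 45.1, 44.1 and 48.5 FPKM in wild-type stage 8 libraries. CG33169, a single-exon gene for a 58-residue protein at chr3L:22856964-22857596, had 65.9, 75.9 and 70.3 FPKM in EcRts libraries, against 81.6, 85.1 and 78.7 FPKM in wild-type stage 10 and 36.6, 28.9 and 27.8 FPKM in wild-type stage 8 libraries. CG33169 kept 86.4% of its wild-type stage 10 mean in EcRts, the highest percentage among the 10. CG5708 had 57.3, 57.97 and 59.9 FPKM in EcRts libraries, against 76.1, 77.3 and 88.7 FPKM in wild-type stage 10 and 38.9, 38.6 and 36.9 FPKM in wild-type stage 8 libraries, again as 3 separate levels.

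**Figure D2:**
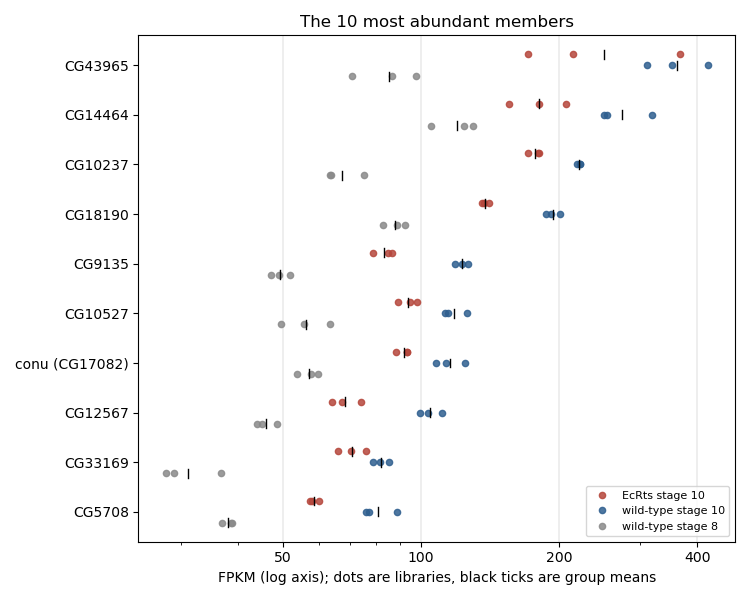
FPKM (log axis) in each of the 9 libraries for the 10 genes with the highest wild-type stage 10 mean, in order from the top, with 1 point per library and a short bar at each group mean. EcRts points lie between the wild-type stage 8 and wild-type stage 10 points in 9 of the genes, and in CG43965 they overlap those of wild-type stage 10.

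The current annotation gives 38 of the 126 genes a symbol other than a CG number, leaves 85 under their number and does not match 3 by identifier (CG32822, CG7267 and CG9203). CG9203 is listed by RefSeq as mh, and CG7267 as a synonym of CG44325. CG43144 is now annotated as a long noncoding RNA and CG15345 as a pseudogene, and the other 121 genes with a current model code for proteins. Of the genes with a name, 19 were placed in 3 groups by what they or their relatives are known to do, after their values had been seen: 7 in genome maintenance, 7 in lipid metabolism and the secretory pathway, and 5 in the cytoskeleton. The remaining named genes are described singly.

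Genome maintenance acts both in the endocycles of nurse and follicle cells and in the cleavage divisions that the egg is provisioned for. The part of these 7 genes in either was not tested. Hat1 (CG2051), which acetylates newly made histone H4, was the most abundant of the 7, with 46.7, 42.7 and 48.1 FPKM in EcRts libraries, against 63.9, 65.6 and 68.96 FPKM in wild-type stage 10 and 26.1, 21.5 and 26.2 FPKM in wild-type stage 8 libraries. Claspin (CG32251), the adaptor through which stalled replication forks activate the Chk1 kinase, had 28.3, 24.3 and 26.7 FPKM in EcRts libraries, against 31.5, 32.3 and 29.8 FPKM in wild-type stage 10 and 14.8, 14.00 and 13.4 FPKM in wild-type stage 8 libraries. Both genes showed 3 separate levels, and Claspin kept 84.9% and Hat1 69.3% of the wild-type stage 10 mean in EcRts.

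Nse4 (CG13142) and Nse1 (CG11329) encode subunits of the Smc5/6 complex, which acts in recombination and repair. Nse4 had 21.9, 21.5 and 22.9 FPKM in EcRts libraries, against 28.6, 29.4 and 29.1 FPKM in wild-type stage 10 and 12.03, 12.4 and 11.8 FPKM in wild-type stage 8 libraries. Nse1 had 18.1, 20.7 and 21.6 FPKM in EcRts libraries, against 23.3, 28.7 and 27.5 FPKM in wild-type stage 10 and 14.2, 11.5 and 11.97 FPKM in wild-type stage 8 libraries. In EcRts, Nse4 was at 76.2% and Nse1 at 76.1% of the wild-type stage 10 mean, with stage ratios of 2.40 and 2.11 in that order. The median of all members was 76.4%, and 50 members lay between 70% and 80%. The rule used this percentage, so nothing about the complex is read from the likeness.

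Nthl1 (CG9272), a DNA glycosylase of base excision repair, had 16.6, 15.7 and 16.8 FPKM in EcRts libraries, against 20.1, 20.01 and 21.00 FPKM in wild-type stage 10 and 8.82, 8.80 and 8.28 FPKM in wild-type stage 8 libraries. mh (CG9203), the Spartan-type protease encoded by maternal haploid and needed for the paternal chromosomes after fertilization, had 11.4, 10.4 and 11.5 FPKM in EcRts libraries, against 13.4, 16.2 and 14.9 FPKM in wild-type stage 10 and 6.38, 6.43 and 6.02 FPKM in wild-type stage 8 libraries. In both genes EcRts lay below wild-type stage 10 and above wild-type stage 8 without overlap. nenya (CG31053), a RING finger protein of meiotic crossover formation, had 7.99, 6.12 and 6.78 FPKM in EcRts libraries, against 5.01, 6.37 and 5.00 FPKM in wild-type stage 10 and 2.83, 1.77 and 1.49 FPKM in wild-type stage 8 libraries. It was the 1 gene of the 7 with a higher EcRts mean, 128% of wild-type stage 10, and these groups overlapped.

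A separate list of 15 DNA replication genes, none of them among the 126, was tested in the same fit. In limma (Benjamini-Hochberg adjusted p under 0.05) 13 of the 15 fell in EcRts against wild-type stage 10, with a median log2(FPKM + 1) difference of -0.30, and 15 of the 15 rose in wild-type stage 10 against wild-type stage 8, with a median of 0.78. Of all tested genes 33.9% were called lower in EcRts and 49.2% higher by stage. The medians over all tested genes were -0.12 and 0.20 on the same scale, and 0.000372 and 0.00633 after median-of-ratios scaling. After that scaling 9 of the 15 fell in EcRts, and after scaling to protein-coding genes 4 did, while all 15 rose by stage under both. Summed FPKM of the list was 985 to 1060 in EcRts, 1290 to 1340 in wild-type stage 10 and 734 to 800 in wild-type stage 8. Of 15 mitotic genes 9 fell and 1 rose in EcRts against wild-type stage 10, where 33.9% and 9.93% of all tested genes were called, and 14 rose in wild-type stage 10 against wild-type stage 8, where 49.2% were. By stage, 11 rose after median-of-ratios scaling and 14 after scaling to protein-coding genes. In EcRts, 6 of them fell and 2 rose after median-of-ratios scaling, and 5 fell and 5 rose after scaling to protein-coding genes. The shares of all tested genes called are from the deposited values and do not apply to the rescaled counts of either list.

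Dpm3 was the most abundant of the lipid and secretory genes. Dpm3 (CG33977), a subunit of the enzyme that makes dolichol-phosphate-mannose for glycosylation, had 37.9, 39.1 and 38.2 FPKM in EcRts libraries, against 50.9, 45.9 and 60.5 FPKM in wild-type stage 10 and 29.8, 25.6 and 20.4 FPKM in wild-type stage 8 libraries. PIG-C (CG12077), which acts in the first step of GPI anchor synthesis, had 10.9, 8.97 and 10.8 FPKM in EcRts libraries, against 13.8, 14.2 and 11.1 FPKM in wild-type stage 10 and 5.94, 5.93 and 6.72 FPKM in wild-type stage 8 libraries. Dpm3 and PIG-C were at 73.2% and 78.4% of the wild-type stage 10 mean in EcRts, in that order, each without overlap. Mvd (CG8239), mevalonate diphosphate decarboxylase of the isoprenoid pathway, had 16.02, 16.3 and 18.2 FPKM in EcRts libraries, against 22.03, 21.6 and 23.2 FPKM in wild-type stage 10 and 9.64, 9.64 and 9.52 FPKM in wild-type stage 8 libraries. CROT (CG12428), a carnitine acyltransferase for medium-chain fatty acids, had 16.2, 14.4 and 15.4 FPKM in EcRts libraries, against 19.96, 21.9 and 20.3 FPKM in wild-type stage 10 and 10.9, 10.9 and 9.29 FPKM in wild-type stage 8 libraries. CROT had the lowest stage ratio of all 126 genes, 2.002.

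Sil1 (CG10420), the nucleotide exchange factor of the endoplasmic reticulum chaperone BiP, had 19.4, 17.8 and 18.1 FPKM in EcRts libraries, against 20.02, 21.3 and 21.1 FPKM in wild-type stage 10 and 10.6, 9.48 and 10.8 FPKM in wild-type stage 8 libraries. Its EcRts libraries lay just below those of wild-type stage 10, at 88.7% of the mean. Sec20 (CG2023), a SNARE protein of transport from the Golgi back to the endoplasmic reticulum, was higher in EcRts, with 20.4, 19.8 and 19.1 FPKM in EcRts libraries, against 15.4, 16.4 and 13.7 FPKM in wild-type stage 10 and 7.38, 6.540 and 5.61 FPKM in wild-type stage 8 libraries. Agpat1 (CG3812), an acyltransferase that makes phosphatidic acid, was also higher, with 9.11, 8.76 and 9.82 FPKM in EcRts libraries, against 7.99, 7.94 and 7.81 FPKM in wild-type stage 10 and 2.96, 2.89 and 3.20 FPKM in wild-type stage 8 libraries. EcRts was at 130.4% of wild-type stage 10 for Sec20 and 117% for Agpat1.

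Among the cytoskeletal genes, TTLL5 (CG31108) and TTLL15 (CG4089) belong to the family of tubulin tyrosine ligase-like enzymes, which add amino acids to tubulin. TTLL5 had 34.1, 32.2 and 33.1 FPKM in EcRts libraries, against 44.9, 46.9 and 46.2 FPKM in wild-type stage 10 and 22.6, 21.7 and 22.6 FPKM in wild-type stage 8 libraries. TTLL15 had 5.25, 5.01 and 5.25 FPKM in EcRts libraries, against 7.42, 6.53 and 7.17 FPKM in wild-type stage 10 and 4.29, 2.81 and 3.11 FPKM in wild-type stage 8 libraries. The 2 enzymes differed in level. They were at 72.05% and 73.5% of the wild-type stage 10 mean in EcRts, with stage ratios of 2.06 and 2.07, TTLL5 first. The rule used both of these ratios, and 50 members lay between 70% and 80%, so nothing is read from the likeness. Swip-1 (CG10641), an EF-hand protein that binds actin, had 23.6, 24.1 and 23.2 FPKM in EcRts libraries, against 37.2, 39.8 and 39.8 FPKM in wild-type stage 10 and 17.1, 18.8 and 14.7 FPKM in wild-type stage 8 libraries, and at 60.8% lay near the mutant threshold. IFT43 (CG5780), a component of intraflagellar transport, had 8.80, 8.94 and 10.3 FPKM in EcRts libraries, against 12.5, 14.2 and 14.02 FPKM in wild-type stage 10 and 5.48, 7.05 and 6.92 FPKM in wild-type stage 8 libraries.

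**Figure D3:**
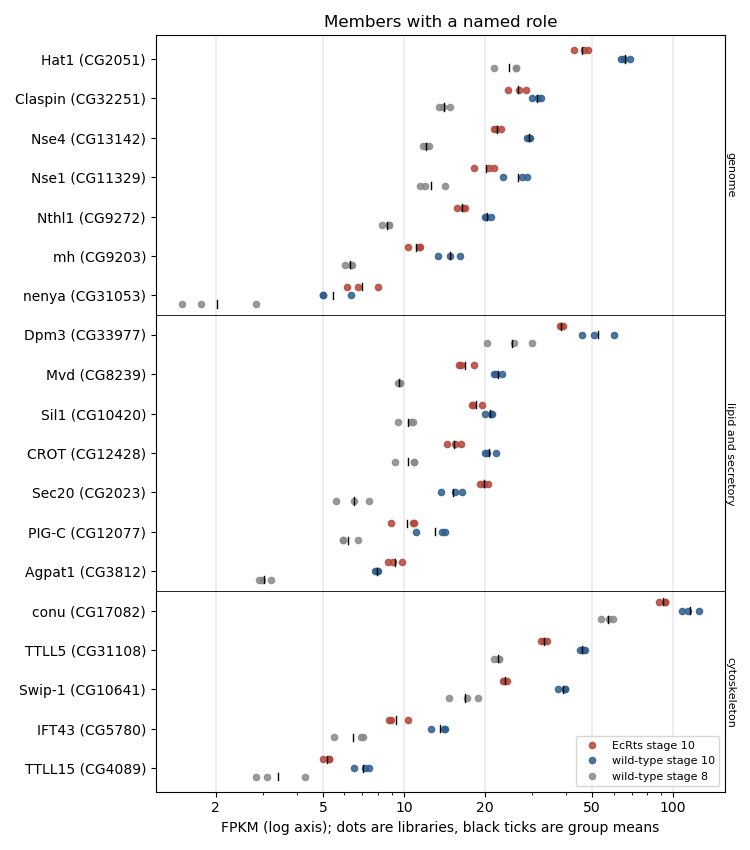
FPKM (log axis) in each of the 9 libraries for the 19 genes placed by role, with 1 point per library, grouped as genome maintenance, lipid and secretory, and cytoskeleton. EcRts points lie between the 2 wild-type groups in 16 genes, above both in Sec20 and Agpat1, and overlap wild-type stage 10 in nenya.

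Other members act in signalling, protein turnover and RNA handling. Sting (CG1667), the receptor for cyclic dinucleotides in innate immunity, had 18.6 to 20.3 FPKM in EcRts libraries, against 21.9, 24.5 and 26.1 FPKM in wild-type stage 10 and 12.3, 11.4 and 10.8 FPKM in wild-type stage 8 libraries. Nprl3 (CG8783), a subunit of the GATOR1 complex that restrains TORC1 when amino acids are short, had 21.5, 19.3 and 18.99 FPKM in EcRts libraries, against 22.5, 26.7 and 23.8 FPKM in wild-type stage 10 and 12.3, 11.3 and 11.3 FPKM in wild-type stage 8 libraries. Larp7 (CG42569), a binding protein of the 7SK RNA, had 27.1, 25.6 and 27.1 FPKM in EcRts libraries, against 36.3, 36.6 and 35.1 FPKM in wild-type stage 10 and 18.9, 15.3 and 18.7 FPKM in wild-type stage 8 libraries. All 3 showed EcRts below wild-type stage 10 and above wild-type stage 8 in every library. DCAF12 (CG3313), a substrate receptor for cullin 4 ubiquitin ligases, had 11.2, 11.3 and 12.6 FPKM in EcRts libraries, against 15.5, 17.4 and 16.3 FPKM in wild-type stage 10 and 7.43, 6.95 and 8.30 FPKM in wild-type stage 8 libraries. Cul6 (CG11261), a cullin itself, had 13.4, 12.5 and 14.9 FPKM in EcRts libraries, against 13.6, 15.03 and 14.4 FPKM in wild-type stage 10 and 7.14, 5.06 and 5.27 FPKM in wild-type stage 8 libraries. Cul6 differed from DCAF12 in that its EcRts libraries overlapped wild-type stage 10, at 94.5% of that mean, against 71.3% for DCAF12.

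Cipc (CG31324), named after a Clock-interacting protein of mammals, had 11.9, 10.9 and 11.1 FPKM in EcRts libraries, against 15.2, 17.2 and 16.01 FPKM in wild-type stage 10 and 5.97, 4.87 and 4.36 FPKM in wild-type stage 8 libraries. dsb (CG1887), debris buster, a receptor of the CD36 class, had 10.7, 11.5 and 10.7 FPKM in EcRts libraries, against 12.5, 13.2 and 12.4 FPKM in wild-type stage 10 and 6.98, 4.83 and 5.42 FPKM in wild-type stage 8 libraries. pasi1 (CG7713), a membrane protein of septate junctions, had 26.7, 31.1 and 27.4 FPKM in EcRts libraries, against 35.2, 32.6 and 31.8 FPKM in wild-type stage 10 and 13.95, 14.3 and 14.5 FPKM in wild-type stage 8 libraries. Cipc had the larger stage ratio at 3.19, against 2.21 for dsb and 2.33 for pasi1. bero (CG9336), of the Ly6 family of GPI-anchored proteins, had 32.9, 39.2 and 47.9 FPKM in EcRts libraries, against 73.7, 45.9 and 74.4 FPKM in wild-type stage 10 and 12.9, 6.94 and 4.77 FPKM in wild-type stage 8 libraries. bero had a stage ratio of 7.90, among the 8 largest of the set, and its EcRts and wild-type stage 10 groups overlapped through the second wild-type library.

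Ugt36E1 (CG17322), a UDP-glycosyltransferase, had 21.1, 20.9 and 22.1 FPKM in EcRts libraries, against 24.4, 26.9 and 24.6 FPKM in wild-type stage 10 and 12.9, 12.02 and 12.7 FPKM in wild-type stage 8 libraries. Phyhd1 (CG14688), of the phytanoyl-CoA dioxygenase family, had 22.5, 25.3 and 24.2 FPKM in EcRts libraries, against 32.9, 23.05 and 32.98 FPKM in wild-type stage 10 and 15.8, 11.2 and 9.63 FPKM in wild-type stage 8 libraries, with the second wild-type stage 10 library inside the EcRts range. The long noncoding RNA CG43144 had 19.8, 21.3 and 23.3 FPKM in EcRts libraries, against 24.1, 24.9 and 28.04 FPKM in wild-type stage 10 and 6.501, 5.42 and 4.02 FPKM in wild-type stage 8 libraries. It stood at 4.83 times its stage 8 mean, with no overlap between any of the groups.

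CG8097, at chrX:15477194-15479058, was the gene with the highest EcRts level relative to wild-type stage 10. It had 41.5, 41.1 and 46.1 FPKM in EcRts libraries, against 17.96, 17.6 and 17.3 FPKM in wild-type stage 10 and 8.14, 8.85 and 7.46 FPKM in wild-type stage 8 libraries. The group means were 42.9 ± 2.80, 17.6 ± 0.321 and 8.15 ± 0.694 FPKM (SD, n = 3 each), so EcRts was at 244% of wild-type stage 10, or 266% after median-of-ratios scaling. The 3 groups did not overlap, and the gene was called higher in EcRts by limma when any single library was left out. Sec20 and Agpat1 followed with the separate groups given above.

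5 more genes had an EcRts mean above the wild-type stage 10 mean with overlapping libraries. They were nenya, CG4424, CG10962, CG6503 and CG16700. CG4424 had 7.63, 6.69 and 6.16 FPKM in EcRts libraries, against 5.38, 6.38 and 5.19 FPKM in wild-type stage 10 and 4.15, 2.17 and 1.94 FPKM in wild-type stage 8 libraries. CG10962 had 5.67, 7.90 and 6.38 FPKM in EcRts libraries, against 5.47, 5.35 and 6.18 FPKM in wild-type stage 10 and 3.13, 2.21 and 2.85 FPKM in wild-type stage 8 libraries. CG16700 had 8.51, 7.89 and 9.71 FPKM in EcRts libraries, against 8.99, 6.37 and 9.65 FPKM in wild-type stage 10 and 3.29, 2.34 and 1.77 FPKM in wild-type stage 8 libraries. In each of these 3 genes the means of EcRts and wild-type stage 10 differed by less than the range within the EcRts or the wild-type group, and CG4424 overlapped only through the third EcRts and the second wild-type stage 10 library.

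The thresholds cut through a continuous range. At the level threshold, CG16848 (Flad2) at 5.062 FPKM and CG5644 at 5.351 FPKM in wild-type stage 10 lay just inside, and CG4676 at 4.755 FPKM and CG10433 at 4.672 FPKM just outside. At the stage threshold, CROT at 2.002 and CG7668 at 2.003 lay inside, and CG5704 at 1.992 and CG3326 at 1.991 outside. At the mutant threshold, CG12716 at 0.6007 and CG7668 at 0.6052 lay inside, and CG11120 at 0.5944 and CG30096 at 0.5943 outside. CG7668 was thus close to both ratios, with 47.2, 48.8 and 49.3 FPKM in EcRts libraries, against 77.7, 76.4 and 86.1 FPKM in wild-type stage 10 and 43.9, 34.99 and 40.95 FPKM in wild-type stage 8 libraries. The other genes with the lowest percentages were Swip-1 at 60.8%, CG1572 at 61.4%, CG13998 at 61.5% and bero at 61.8%. CG13998, a single-exon gene for a 97-residue protein, had 49.01, 46.2 and 41.98 FPKM in EcRts libraries, against 76.00, 76.3 and 70.8 FPKM in wild-type stage 10 and 29.9, 14.6 and 17.4 FPKM in wild-type stage 8 libraries. CG1572 had 7.07, 7.02 and 10.9 FPKM in EcRts libraries, against 13.3, 10.95 and 16.5 FPKM in wild-type stage 10 and 6.41, 6.57 and 4.82 FPKM in wild-type stage 8 libraries, with the third EcRts library close to the second of wild-type stage 10.

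The steepest stage ratios included genes whose libraries differed widely within a group. The 5 genes at a ratio of 10 or more were CG6503, IM33 (CG16712), CG4716, Bbd (CG18067) and ssp7. CG6503, a 62-residue predicted protein, had 24.5, 0.639 and 8.64 FPKM in EcRts libraries, against 10.3, 6.52 and 13.8 FPKM in wild-type stage 10 and 0, 0 and 0.643 FPKM in wild-type stage 8 libraries. IM33, an immune-induced peptide of the fly humoral response, had 36.7, 2.56 and 9.17 FPKM in EcRts libraries, against 19.97, 17.4 and 38.3 FPKM in wild-type stage 10 and 0, 1.42 and 1.93 FPKM in wild-type stage 8 libraries. In both, the first EcRts library was the highest and the second the lowest of the mutant group, and at least 1 wild-type stage 8 library was listed at 0, so the mean ratios of 47.7 for CG6503 and 22.5 for IM33 rest on few fragments. Bbd, Bombardier, needed for the function of the short bomanin peptides of the antimicrobial defence, had 13.9, 1.83 and 5.45 FPKM in EcRts libraries, against 5.97, 3.42 and 19.00 FPKM in wild-type stage 10 and 0.856, 0.938 and 0.510 FPKM in wild-type stage 8 libraries. CG4716 had 8.66, 1.47 and 3.44 FPKM in EcRts libraries, against 5.94, 5.73 and 9.84 FPKM in wild-type stage 10 and 0.0914, 0.593 and 1.010 FPKM in wild-type stage 8 libraries. ssp7 had 11.1, 1.41 and 2.81 FPKM in EcRts libraries, against 9.39, 3.98 and 9.50 FPKM in wild-type stage 10 and 0, 0.686 and 1.60 FPKM in wild-type stage 8 libraries. The first EcRts library was again the highest and the second the lowest in each of these 3 genes.

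CG8369, at a stage ratio of 8.19, had 7.13, 1.92 and 4.49 FPKM in EcRts libraries, against 6.53, 5.18 and 5.55 FPKM in wild-type stage 10 and 0.520, 0.662 and 0.927 FPKM in wild-type stage 8 libraries. It was the last of 6 genes with the same order of EcRts libraries. CG12716 and CG14245 also ranged over at least 3-fold among EcRts libraries, but with the second library highest. CG12716 had 5.62, 13.6 and 4.07 FPKM and CG14245 3.72, 18.7 and 0.3001 FPKM in the EcRts libraries. Each of these 8 genes, picked after their values were seen, failed the rule when an EcRts library was left out, the 6 without the first and CG12716 and CG14245 without the second. Of the 8, 5 also failed it without a wild-type stage 10 library: IM33 and CG4716 without the first or the second, Bbd without the second or the third, ssp7 without the second, and CG12716 without the first.

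Summed FPKM of a list of 5 fat body genes had the same order of EcRts libraries as these 6 genes. It was 16.2, 3.94 and 7.06 FPKM in the EcRts libraries, 8.77, 8.03 and 15.8 FPKM in wild-type stage 10 and 3.1, 2.68 and 3.8 FPKM in wild-type stage 8. In wild-type stage 10 the third library was highest for IM33, CG6503, Bbd, ssp7, CG4716 and CG12716, but not for CG8369. The second was lowest for IM33, CG6503, Bbd, ssp7, CG4716 and CG8369. In wild-type stage 8 the fat body sum was highest in the third library, as were these genes except Bbd. That sum was lowest in the second library, whereas IM33, ssp7, CG4716 and CG8369 were lowest in the first and Bbd in the third. The fat body lies beside the ovary in the abdomen and makes the immune peptides of the fly, and 1 of the 5 list genes passed the filter on low values. That gene, Rfabg, which encodes the lipoprotein precursor of the blood, gave most of each sum, at 13.0, 3.88 and 6.32 FPKM in EcRts, 7.28, 6.82 and 14.2 FPKM in wild-type stage 10 and 2.9, 2.5 and 3.68 FPKM in wild-type stage 8. Fbp1 and Fbp2 were at 0 in every EcRts library and at up to 0.125 FPKM in the others. The part of fat body RNA in the values of these genes was not tested.

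**Figure D4:**
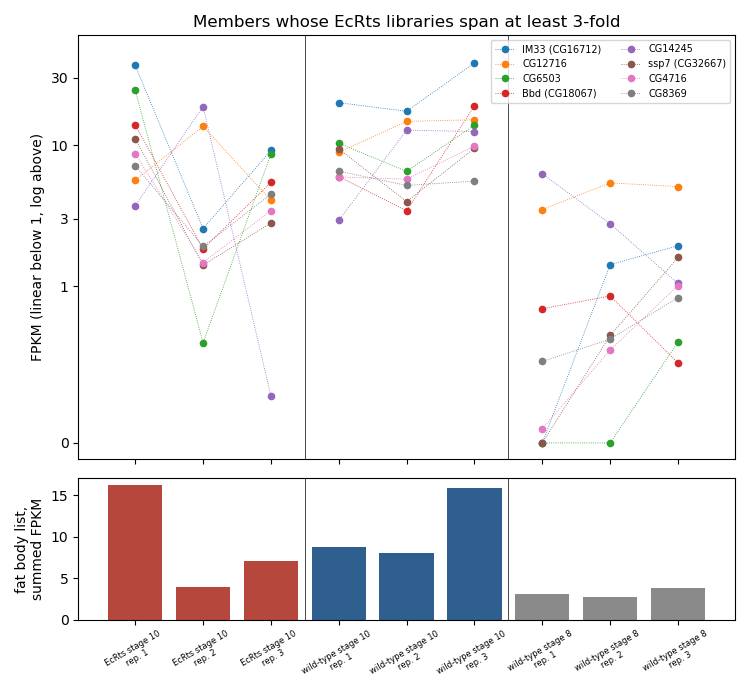
Top, FPKM in each library (linear below 1, log above) for the 8 genes whose EcRts libraries ranged over at least 3-fold, with dotted lines joining the points of a gene only to guide the eye. Bottom, summed FPKM of the 5 fat body genes in the same libraries as bars from 0. EcRts replicate 1 is high and EcRts replicate 2 low in 6 of the 8 genes, and the fat body sums are 16.2 and 3.94 FPKM in those libraries.

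The coefficient of variation was under 10% in 87 of the 126 genes in EcRts, 91 in wild-type stage 10 and 64 in wild-type stage 8, and over 50% in 8, 2 and 6 genes in the same order of groups. Leaving out each of the 9 libraries in turn and applying the rule again kept 81 of the 126 genes in every case, and 45 were lost at least once. All 126 genes passed the filter on low values, and 16 rested on fewer than 50 implied fragments in at least 1 library.

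The 113 genes with the same stage difference and a lower mutant level were set beside the 126 without a test, since the sets were divided by these values. Their median levels were 7.827 FPKM in EcRts, 18.46 FPKM in wild-type stage 10 and 3.502 FPKM in wild-type stage 8, so the medians of the sets were closest in wild-type stage 10. The median coefficient of variation was 6.89% for the 126 and 20.3% for the 113 in EcRts, 6.28% and 14.4% in wild-type stage 10, and 9.82% and 33.6% in wild-type stage 8. Over all tested genes it was 5.59%, 6.47% and 6.95% in the same order of groups. Among genes without a CG number, 226 met the same rule, with medians of 24.95 FPKM in EcRts, 29.33 FPKM in wild-type stage 10 and 12.26 FPKM in wild-type stage 8, and a median of 75.8% of the wild-type stage 10 mean in EcRts. Their median coefficient of variation was 7.58%, 6.02% and 9.04% in the same order of groups.

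Features that the rule did not use were read from the files' positions and the current gene models. The 121 protein-coding members had a median length of 336 residues, against 398.5 in the 113 genes, 388 in the 226 genes, 392 over all tested CG-numbered genes and 444 over all tested genes, and the shortest was CG43965 with 38 residues. A single exon was annotated for 18 members, which is 14.6% of those with a model, against 13.0% of the 113 genes, 32.3% of the 226 genes, 10.3% of all tested CG-numbered genes and 15.1% of all tested genes. By chromosome arm, 23 members lay on X, 29 on 2L, 19 on 2R, 22 on 3L and 32 on 3R, and 1, CG12567, on 2LHet. X held 18.3% of the set against 17.1% of all tested genes, 2L 23.02% against 18.0%, 2R 15.1% against 21.1%, 3L 17.5% against 18.6%, and 3R 25.4% against 22.9%.

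Neighbouring members were counted. No 2 members were each other's nearest gene. Within 1000 bases of each other lay 2 pairs of members, 9 pairs among the 113 genes and 11 among the 226 without a CG number. The same count over all tested genes is not given, so nothing is read from these numbers. CG31121 and CG11069, 139 bases apart on 3R and transcribed away from each other, form one pair. CG31121 had 5.72, 5.25 and 4.49 FPKM in EcRts, 7.55, 6.84 and 5.93 FPKM in wild-type stage 10 and 2.017, 1.496 and 1.61 FPKM in wild-type stage 8. CG11069 had 6.40, 5.24 and 5.78 FPKM in EcRts, 9.19, 9.31 and 9.18 FPKM in wild-type stage 10 and 3.80, 2.77 and 2.53 FPKM in wild-type stage 8. In both genes EcRts lay between the wild-type groups without overlap. CG15721 and CG12716, 716 bases apart on X, form the other, and CG15721 had 10.4, 9.26 and 16.2 FPKM in EcRts, 19.4, 15.04 and 18.8 FPKM in wild-type stage 10 and 4.17, 3.23 and 2.07 FPKM in wild-type stage 8. The third EcRts library was the highest for CG15721, and the second for CG12716.

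Of the 126 genes, 52 (41.3%) overlapped another gene in the files' positions, against 46.3% of all tested genes. In 45 of the overlapping pairs the current models lie on opposite strands, in 5 on the same strand, and in 4 a strand is not given. Overlap was taken from the listed start and end of each gene, and overlap between exons was not examined. The strand setting of the counting is also unknown. How far reads of an overlapping gene entered the value of a member was therefore not tested. The overlapping gene was much more abundant for CG7110, which overlaps the vitelline membrane gene Vm34Ca at means of 14300, 15300 and 5050 FPKM in EcRts, wild-type stage 10 and wild-type stage 8, and CG7110 itself had 19.8, 17.01 and 18.9 FPKM in EcRts libraries, against 20.8, 21.8 and 21.7 FPKM in wild-type stage 10 and 10.3, 10.1 and 10.1 FPKM in wild-type stage 8 libraries. CG7730 overlaps Ilp8, an insulin-like peptide gene at means of 19.0, 6.34 and 2.81 FPKM in the same order, and had 21.04, 15.9 and 20.7 FPKM in EcRts libraries, against 23.9, 26.8 and 24.96 FPKM in wild-type stage 10 and 8.00, 8.03 and 6.34 FPKM in wild-type stage 8 libraries. Sting overlaps Orc6, an origin recognition complex gene at 14.2, 25.2 and 8.62 FPKM, and CG43965 overlaps CG6511 at 14.7, 19.3 and 12.9 FPKM.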

How the data were processed

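The deposited values are gene-level FPKM that the authors computed with Cufflinks, with confidence limits and a status per gene, per the file headers. Cufflinks 2.02, TopHat2 2.0.7, Bowtie2 2.0.6, CASAVA 1.8.2 and the build dm3 appear in the submitters' processing notes. No annotation release, strand setting or read count is given in the sources used here. FPKM divides by transcript length and by the library total, so a larger share of RNA in some genes leaves less of the total for the others.

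The selection rule was applied to arithmetic means of the deposited FPKM. The genes, the lists and the roles were chosen with earlier results of these data known. The tests covered 8340 genes, those that reached 1 FPKM in 3 libraries or more, leaving out 19 genes listed at 0 in a library after a failed estimate. The log2(FPKM + 1) values of all 9 libraries were modelled by group means with limma 3.58.1 in R 4.3.3, with a variance trend and 6 residual degrees of freedom. Adjusted p-values are Benjamini-Hochberg values over all tested genes, and fold changes on this scale understate those of low genes. The fit was tested on simulated data.

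Depth was derived from the deposited confidence limits. Implied counts under 50 came within 0.02 of a whole number in 56.6% to 60.6% of cases per library, so no count test was run. Intervals from depth are not given. Median-of-ratios factors used genes above 0 in all 9 libraries. No 2 libraries were identical (0 pairs).

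Named genes are the 10 highest in wild-type stage 10, the 8 largest stage ratios, the 6 highest and 6 lowest EcRts ratios, those next to each threshold, neighbours, and members with a current name. Other members are named where a count of 5 or fewer, a library range or an overlapping gene singled them out after their values were seen. Some results are not reported here. Current annotation (Ensembl and RefSeq, matched for 14926 identifiers) served for names, gene types, strands, exon numbers and coding lengths, not for positions, which are printed from 1. Python 3.11.15, numpy 2.4.6, pandas 2.3.3 and matplotlib 3.10.9 were used. Alternatives covered scaling, thresholds, pseudocount, filter, each library left out and a replicate block.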

Additional observations from a re-analysis of the deposited data

How the results depend on the processing

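Membership depended on the scaling between libraries and on the ratios in the rule. Against 126 genes as deposited, median-of-ratios scaling gave 76 genes, 63 of them among the 126, and scaling to protein-coding genes gave 120, of which 99 were among the 126. Asking for a stage ratio of at least 3 left 22 genes, and asking for an EcRts ratio above 0.8 left 47. Group medians in place of means, other level thresholds and an EcRts ratio above 0.5 gave 103 to 154 genes, and leaving out 1 library gave 116 to 144.

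Members called lower in EcRts than in wild-type stage 10 numbered 79 as deposited, 44 after median-of-ratios scaling, 31 after protein-coding scaling and 60 to 83 with 1 library left out. The shares of all tested genes called after these scalings are not given, and the cause was not tested. Members called higher numbered 3, and 1 to 3 with 1 library left out. Members called higher in wild-type stage 10 than in wild-type stage 8 numbered 123 to 125 under all alternatives, and those higher in EcRts than in wild-type stage 8 numbered 116 to 124.

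Deviations of same-numbered libraries from their group means had correlations from -0.0389 to 0.23. Such values cannot exclude a shared day or batch, and the labels do not say what a replicate number marks, so pairing is unknown. With a replicate block the calls were 76 lower and 2 higher for EcRts against wild-type stage 10, 125 higher for wild-type stage 10 against stage 8 and 122 higher for EcRts against wild-type stage 8. Depth limits low values: the lowest behind a member's value was 1 implied fragment, in CG6503 and CG4716.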
